A study of Homo sapiens with 18 samples.

Results

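Solute carriers are the membrane proteins that move sugars, amino acids, ions, metals, vitamins, nucleotides, neurotransmitters and organic molecules across the plasma membrane and the membranes of organelles. Their genes were taken here by symbol, as every gene whose symbol starts with SLC and a digit, except 8 amino-acid stress genes (SLC7A11, SLC7A5, SLC3A2, SLC7A1, SLC1A5, SLC1A4, SLC38A2 and SLC6A9). Of 368 such genes with a probe on the array, 260 had a probe that was detected, with a detection p below 0.01, on 3 or more of the 18 arrays, among 13505 genes with such a probe in all. The other 108 solute carrier genes were not tested, and 85 of them were detected on no array. Of the 260, 194 were detected on all 18 arrays through the probe used here. At the edge of the filter, 12 genes were detected on exactly 3 arrays, with mean levels of 5.62 to 6.13, and 6 on exactly 2 arrays, with mean levels of 5.67 to 5.99, and these 6 were left out. SLC6A4 was kept through 1 group only, so that a difference involving that group was built into its selection, and its values are given without a test although the counts below include its calls. SLC47A1, SLC17A9 and SLC19A3, detected on 4, 5 and 4 arrays, likewise passed only because of the 3 arrays of 1 group. Changes that involve that group were favoured by their selection and carry no p-value below, although the counts include them. A few members match by symbol without being transporters themselves, such as SLC2A4RG, SLC4A1AP and SLC7A6OS. Another 7 members are non-coding transcripts and pseudogenes, such as SLC7A5P2 and SLC38A2-AS1, and the counts over all 260 include them.

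The cells were U2OS, a human osteosarcoma line, stably transfected with a vector that carries estrogen receptor alpha (ERα) or beta (ERβ) and is switched on by doxycycline, a tetracycline antibiotic. Both lines were measured untreated, with doxycycline alone, and with doxycycline and E2 together (E2 being the usual short name of the estrogen estradiol), with 3 single-colour Illumina arrays in each of the 6 groups. All cells carried a vector, and neither doses nor times nor the number of clones behind each line are given in the sources used here. Nothing in the labels says that the 3 arrays were separate cultures, so the p-values speak only of array-to-array spread, which may be technical.

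Estrogen receptors are transcription factors that bind estradiol and then act at estrogen response elements in DNA or through other factors such as AP-1. Solute carrier families are numbered by sequence likeness rather than by substrate, and most members use an ion gradient or exchange one solute for another. In bone-forming cells they supply phosphate, glucose, amino acids and metals for matrix building and energy metabolism.

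Each array detected between 19834 and 22485 probes, with median raw signals of 217 to 251. Levels below are normalized log2 signals, on which the lowest detected values lay between 6.08 and 6.52 depending on the array, and they are not compared between probes. A change is a log2 change ± its standard error (SE) with 3 arrays a group. It is called when the Benjamini-Hochberg adjusted p of limma, over all 13505 genes, is below 0.05, and every adjusted p below is of this kind. The number of arrays limits the precision, and the median SE was 0.139. Of 8 mesenchymal and bone markers, VIM, SPARC, COL1A1, RUNX2, ALPL and BGLAP were detected on all 18 arrays, COL1A2 on 1 and SP7 on 0. COL1A1 had a mean level of 15.06 without doxycycline in the ERα line, against 9.83 in the ERβ line. Of 6 epithelial markers, EPCAM, KRT8 and KRT18 were detected on 18 arrays, CLDN4 on 11, CDH1 on 6 and ESRP1 on 0. PTPRC, CD3E, HBB and CDH5 were detected on 0 arrays, CD14 on 7, KDR on 3, and PECAM1 and VWF on 18. ESR2, the ERβ gene, had a mean level of 11.26 without doxycycline, 15.94 with it and 16.04 with E2 in the ERβ line, so signal for the receptor was present before doxycycline. The ESR1 probe was detected on 3 of 18 arrays and did not rise in the line labelled ERα, and the labels do not say whether the vector's insert holds the target of the probe. That line is called the ERα line by its label.

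In the ERα line E2 changed 70 of the 260 solute carrier genes, of which 40 rose and 30 fell. That was 26.9%, where 22.0% of all 13505 genes were called. In the ERβ line E2 changed 49 members, 26 up and 23 down, or 18.8% against 13.8% of all genes. Doxycycline alone changed 0 members in the ERα line, where 0.0148% of all genes (2 genes) were called, and 54 in the ERβ line, 25 up and 29 down, or 20.8% against 20.6% of all genes. The median change of the members was -0.02 with E2 in the ERα line, -0.04 with E2 in the ERβ line and -0.03 with doxycycline in the ERβ line, beside medians of -0.03, -0.03 and -0.04 over all genes. The median changes of the members were thus near the background of the array, as was their called share with doxycycline in the ERβ line. With E2 the called share was above that of all genes in both lines, a gap that was not tested. The large changes lay in a small number of single genes. In such bulk RNA, more cells with a transcript and more transcript per cell cannot be told apart. A called rise that was 2-fold or more as fitted was found for 14 members with E2 in the ERα line. There were 10 with E2 in the ERβ line and 8 with doxycycline in the ERβ line, against 3, 2 and 4 falls of that size. These were 6.54%, 4.62% and 4.62% of the members, beside 5.52%, 2.9% and 4.55% of all genes, so that the first and the last share lay near the background. Some of these genes were undetected in a group, and their fitted sizes are no bounds. Against the lowest detected signals, the SLC17A9 rise with E2 was at least 1.09-fold in the ERα line and -0.14 log2 in the ERβ line. The SLC2A5 rise with doxycycline was at least 1.12-fold, and the SLC35F3 fall with E2 in the ERβ line at least 1.61-fold. E2 and doxycycline within a line are set against or include the same doxycycline arrays, so their values are only given side by side.

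**Figure D1:**
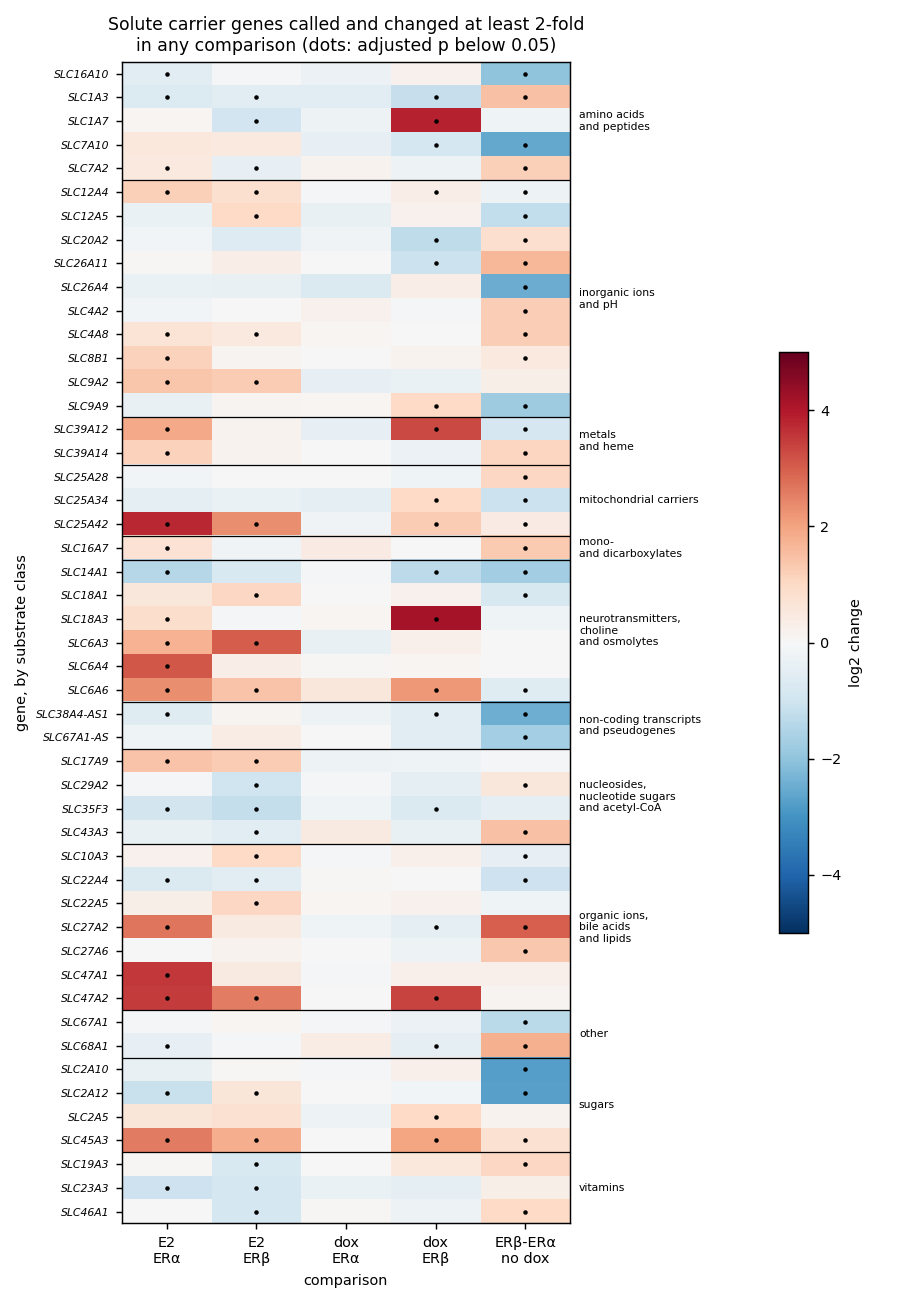
Log2 change of the 49 solute carrier genes with a called change of 2-fold or more as fitted in any of 5 comparisons (columns), grouped by substrate class (rows). Red is a rise or a higher level in the ERβ line, blue the opposite, and a black dot marks an adjusted p below 0.05; the column for doxycycline in the ERα line holds no dot.

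**Figure D2:**
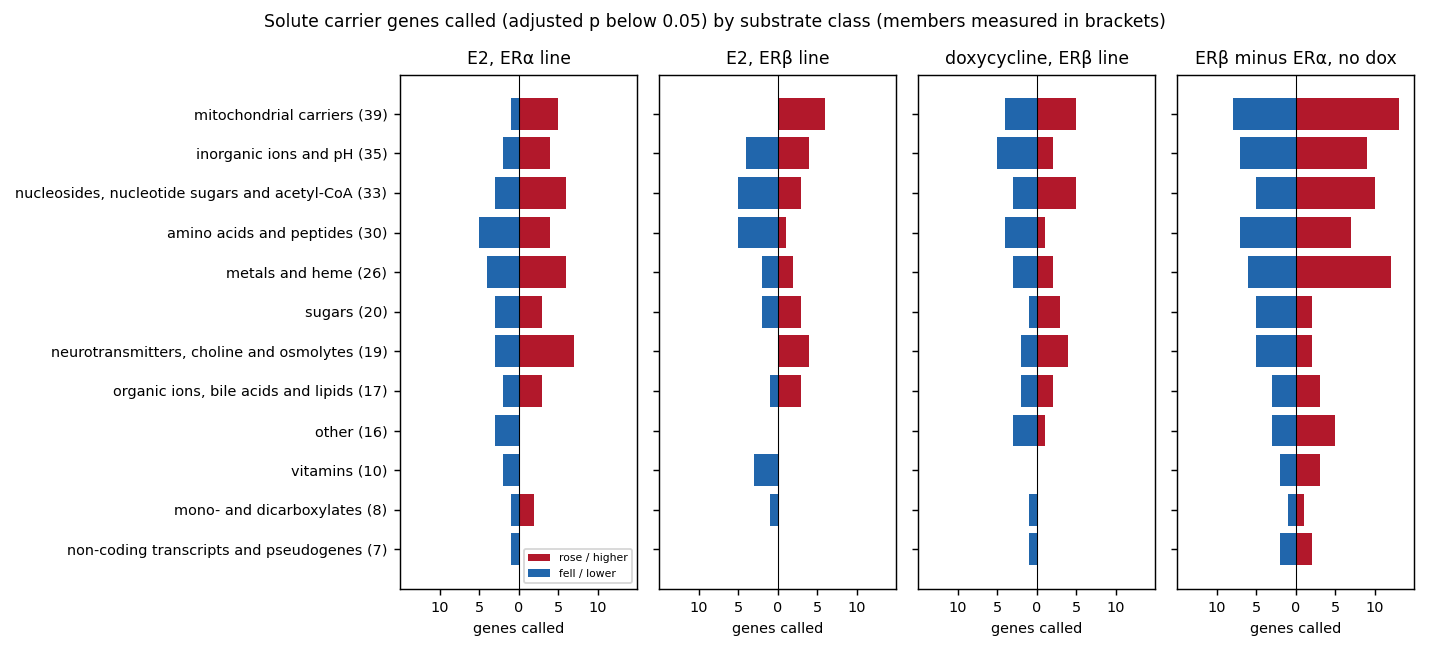
Number of solute carrier genes called in each substrate class, with rises or higher levels to the right in red and falls or lower levels to the left in blue. The brackets give the members measured in each class. The 19 neurotransmitter, choline and osmolyte genes held 7 rises with E2 in the ERα line, where 10.9% of all genes rose. The 39 mitochondrial carriers held 6 rises and 0 falls with E2 in the ERβ line, where 6.98% of all genes rose and 6.84% fell.

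The largest fitted E2 response of a member in the ERα line was that of SLC25A42, the mitochondrial carrier of coenzyme A. Its levels with doxycycline were 9.66, 10.05 and 9.69 in the ERα line and 13.57, 13.58 and 13.54 after E2. In the ERβ line they were 10.56, 10.41 and 10.17 without doxycycline, 11.74, 11.56 and 11.63 with it and 14.01, 14.01 and 13.95 with E2. The groups did not overlap in either line, and the ERβ line rose at both steps whereas the ERα arrays with and without doxycycline intermingled. The rise with E2 was 3.76 ± 0.15 in the ERα line (13.6-fold, adjusted p = 1.17e-10) and 2.34 ± 0.15 in the ERβ line (5.06-fold, adjusted p = 8.81e-08). Doxycycline alone gave 1.27 ± 0.15 in the ERβ line (adjusted p = 2.38e-05) and -0.17 ± 0.15 in the ERα line (adjusted p = 1.00). A second probe, ILMN_1763464, gave 3.93, 2.77 and 1.30 for the 3 called changes. The SLC25A42 promoter is shown as that of the member with the largest fitted E2 rise. It is the RefSeq window of GRCh38.p14 from 250 bases before to 50 bases after the start, chr19:19063744-19064043 on the plus strand, and none of the motifs searched below was found in it, so no base is in capitals.
SLC25A42: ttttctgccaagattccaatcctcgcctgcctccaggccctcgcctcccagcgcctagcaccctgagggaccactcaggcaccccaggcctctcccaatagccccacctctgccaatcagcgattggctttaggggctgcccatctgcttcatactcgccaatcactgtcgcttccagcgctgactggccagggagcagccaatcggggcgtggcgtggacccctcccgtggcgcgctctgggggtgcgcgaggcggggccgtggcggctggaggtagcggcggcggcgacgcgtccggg

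The other 38 mitochondrial carriers, which pass metabolites and nucleotides through the inner membrane, moved far less. With E2 in the ERα line 5 of the 39 rose and 1 fell, and in the ERβ line 6 rose and 0 fell. That was 15.4% called in each line, beside 22.0% and 13.8% of all genes. SLC25A24, a calcium-regulated ATP-magnesium and phosphate carrier, changed by 0.88 ± 0.13 with E2 in the ERα line, 0.48 ± 0.13 in the ERβ line and 0.71 ± 0.13 with doxycycline in the ERβ line. SLC25A12, an aspartate and glutamate carrier, rose by 0.67 ± 0.08 and 0.95 ± 0.08 with E2 in the ERα and ERβ lines but fell with doxycycline in the ERβ line (-0.52 ± 0.08). The citrate carrier SLC25A1 rose with E2 in both lines, by 0.51 and 0.31. SLC25A35 fell in the ERα line (-0.79 ± 0.16) and was not called in the ERβ line (0.12 ± 0.16). The adenine nucleotide carrier SLC25A5, named whatever its values, had E2 changes of 0.01 ± 0.06 in the ERα line, against -0.01 ± 0.06 in the ERβ line and passed the test in neither. Members given here that are neither among the largest changes of a comparison or of a class nor on the preset list were chosen after their values were seen.

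The organic ion and lipid transporters held 2 further large rises. SLC47A1 and SLC47A2, which extrude organic cations in exchange for protons, were both undetected on the doxycycline arrays of the ERα line. SLC47A1 levels there were 5.05, 4.98 and 5.37 with doxycycline and 8.68, 8.73 and 8.64 after E2, and SLC47A2 levels were 5.34, 4.87 and 4.79 and 8.47, 8.63 and 8.39. Against the lowest detected signals, SLC47A1 was at least 5.17-fold higher after E2, a change favoured by its selection. SLC47A2 was at least 4.54-fold higher (adjusted p = 1.23e-10). All E2 arrays stood above all doxycycline arrays for both genes.

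The 2 genes parted in the ERβ line. SLC47A2 read 5.21, 5.06 and 5.21 without doxycycline, 8.62, 8.34 and 8.69 with it and 11.12, 11.01 and 11.17 with E2, an increase at both steps with no overlap. Doxycycline raised SLC47A2 at least 4.40-fold (adjusted p = 2.81e-10), and E2 raised it a further 5.86-fold, 2.55 ± 0.14 on the log2 scale. SLC47A1 instead read 5.66, 5.53 and 5.24 without doxycycline, 5.46, 6.10 and 5.62 with it and 5.68, 6.30 and 6.55 with E2, was detected on 1 of these 9 arrays, and was not called for E2 (adjusted p = 0.195). The difference of the E2 responses (ERβ minus ERα) was called for both, with fitted values of -3.10 ± 0.29 for SLC47A1 and -0.95 ± 0.20 for SLC47A2, where 8.69% of all genes were called for such a difference. For SLC47A1 that call was favoured by its selection. For SLC47A2 the ERα response has only a lower bound, which is below its ERβ response, so the direction of that fitted difference rests on signals below detection.

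Among lipid-handling members, SLC27A2, a fatty acid transport protein and very-long-chain acyl-CoA synthetase, was high in every ERβ group and, in the ERα line, with E2 alone. It read 6.84, 6.66 and 6.13 with doxycycline and 9.18, 9.26 and 9.27 with E2 in the ERα line, a rise of 2.69 ± 0.15 (6.46-fold). In the ERβ line it was already at 9.78, 9.64 and 9.81 without doxycycline and read 9.72, 9.74 and 9.59 with E2. There it fell with doxycycline (-0.50 ± 0.15) and the E2 change was not called (0.44 ± 0.15, adjusted p = 0.0656). SLC27A1, another fatty acid transport protein, fell with E2 in the ERα line (-0.88 ± 0.16) and with doxycycline in the ERβ line (-0.90 ± 0.16). SLC22A5, the carnitine transporter, read 8.91, 8.52 and 9.002 with doxycycline and 9.96, 9.93 and 9.70 with E2 in the ERβ line, a rise of 1.05 ± 0.13, while its E2 change in the ERα line was 0.31 ± 0.13 (adjusted p = 0.122). SLC22A4, its close relative that carries ergothioneine, fell with E2 in both lines, with changes of -0.71 ± 0.13 and -0.53 ± 0.13. Over the 17 members of the class, E2 raised 3 and lowered 2 in the ERα line and raised 3 and lowered 1 in the ERβ line. These were 29.4% and 23.5%, beside 22.0% and 13.8% of all genes.

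**Figure D3:**
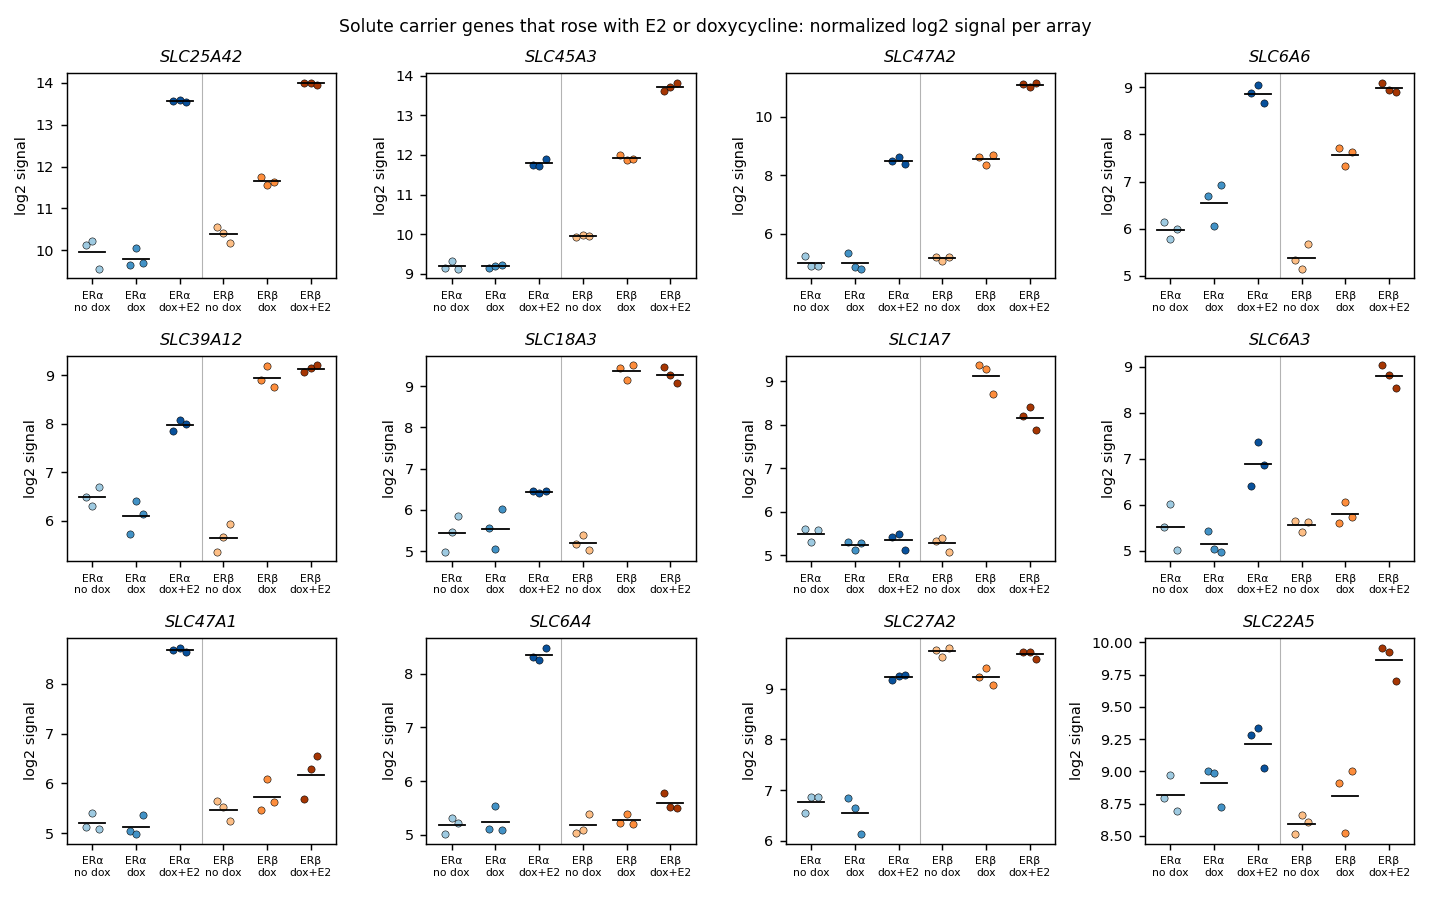
Normalized log2 signal of 12 solute carrier genes on each of the 18 arrays, with 3 points a group, a bar for the group mean and blue shades for the ERα line and orange shades for the ERβ line. SLC25A42, SLC45A3, SLC47A2 and SLC6A6 step up with doxycycline and again with E2 in the ERβ line, SLC39A12, SLC18A3 and SLC1A7 step up with doxycycline only, and SLC47A1 and SLC6A4 are high in the E2-treated ERα group alone among the 6.

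Of 19 transporters of neurotransmitters, choline and osmolytes, E2 raised 7 and lowered 3 in the ERα line and raised 4 and lowered 0 in the ERβ line. These were 52.6% and 21.1% of the class, beside 22.0% and 13.8% of all genes, with no test of the class. SLC6A4, the serotonin transporter, was detected in 1 group only. It read 5.10, 5.53 and 5.08 with doxycycline and 8.31, 8.26 and 8.49 with E2 in the ERα line, at least 4.10-fold higher, and 5.77, 5.52 and 5.50 with E2 in the ERβ line, where it was detected on no array. SLC6A3, the dopamine transporter, responded to E2 in both lines.

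With doxycycline SLC6A3 read 5.42, 5.03 and 4.97 in the ERα line, against 5.61, 6.05 and 5.73 in the ERβ line, all undetected, and with E2 6.40, 7.36 and 6.87 and 9.04, 8.83 and 8.55. The rise was at least 1.48-fold in the ERα line (adjusted p = 1.10e-04) and at least 5.49-fold in the ERβ line (adjusted p = 9.88e-07). The fitted difference between the lines was 1.28 ± 0.36 (adjusted p = 0.0364). That value rests on undetected levels in both lines, is no bound, and lost its call in 10 of 25 other settings.

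SLC6A6, the taurine transporter, followed the stepwise pattern. Its levels in the ERβ line were 5.33, 5.14 and 5.67 without doxycycline, 7.72, 7.33 and 7.62 with it and 9.10, 8.94 and 8.90 with E2, with no overlap between the 3 groups. Doxycycline raised it at least 2.21-fold and E2 by a further 1.42 ± 0.20. In the ERα line it read 6.15, 5.78 and 5.99 without doxycycline, 6.69, 6.05 and 6.92 with it and 8.88, 9.04 and 8.67 with E2, a rise of 2.31 ± 0.20 with E2, after a doxycycline change of 0.58 ± 0.20 that was not called (adjusted p = 0.703).

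SLC18A3, which loads acetylcholine into synaptic vesicles, had the largest doxycycline response of the members as fitted, ahead of SLC1A7, and as both were undetected without doxycycline their order is not established. It read 5.17, 5.39 and 5.04 without doxycycline, undetected, and 9.45, 9.16 and 9.51 with it in the ERβ line, at least 7.81-fold higher (adjusted p = 3.03e-09). E2 left it at 9.47, 9.28 and 9.07, a change of -0.10 ± 0.22 that was not called. In the ERα line E2 took it from undetected levels of 5.57, 5.06 and 6.01 to 6.47, 6.41 and 6.45, at least 1.09-fold higher (adjusted p = 0.00900), close to the detection limit. SLC14A1, a urea channel, gave the largest called fall among the members in 2 comparisons, -1.43 ± 0.24 with E2 in the ERα line and -1.32 ± 0.24 with doxycycline in the ERβ line. Its second probe, ILMN_2197659, gave -0.02 and 0.07 for the same comparisons, so the falls were seen by 1 of the 2 probes.

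Among amino acid and peptide transporters, SLC1A7, a glutamate transporter known from the retina, was detected only with doxycycline in the ERβ line, with or without E2. It read 5.33, 5.40 and 5.08 without doxycycline, 9.38, 9.28 and 8.71 with doxycycline and 8.21, 8.42 and 7.87 with E2 in the ERβ line. Doxycycline therefore raised it at least 6.56-fold (adjusted p = 5.48e-10), and it then fell with E2 (-0.96 ± 0.18, adjusted p = 0.00147). In the ERα line it was undetected on all 9 arrays. Its difference of doxycycline responses, 4.12 ± 0.25, was as fitted the largest among the members.

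SLC1A3, the glutamate transporter of glia, went the other way. It read 10.94, 11.05 and 10.61, 10.25, 10.48 and 10.25 and 9.59, 9.90 and 9.45 in the 3 ERα groups and 12.29, 12.45 and 12.22, 11.37, 11.19 and 10.92 and 10.60, 10.64 and 10.59 in the 3 ERβ groups, in the order without doxycycline, with it and with E2. E2 lowered it in both lines (-0.68 ± 0.14 and -0.55 ± 0.14), and doxycycline lowered it in the ERβ line (-1.16 ± 0.14), while the doxycycline change of -0.54 ± 0.14 in the ERα line was not called (adjusted p = 0.510). Of the 30 members of the class, E2 raised 4 and lowered 5 in the ERα line, and raised 1 and lowered 5 in the ERβ line. These were 30% and 20%, beside 22.0% and 13.8% of all genes. SLC43A1, a transporter of large neutral amino acids, fell with E2 in the ERα line (-0.75 ± 0.15).

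SLC66A1, the lysosomal exporter of cationic amino acids, and SLC7A2, a cationic amino acid transporter of the plasma membrane, moved in opposite directions in the 2 lines. With E2, SLC66A1 fell in the ERα line (-0.38 ± 0.12) and rose in the ERβ line (0.62 ± 0.12), and SLC7A2 rose in the ERα line (0.48 ± 0.11) and fell in the ERβ line (-0.40 ± 0.11). SLC7A10, which exchanges small neutral amino acids, differed mainly between the lines. It read 10.02, 10.13 and 9.44 in the ERα line, against 7.41, 7.35 and 7.11 in the ERβ line without doxycycline, a difference of -2.57 ± 0.23, and fell further with doxycycline in the ERβ line (-0.89 ± 0.23). The call of that doxycycline fall was lost in 6 of 19 other settings.

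Sugar transporters split between rises and falls. SLC45A3, a sugar transporter family member that is abundant in prostate, read 9.16, 9.21 and 9.21 with doxycycline and 11.74, 11.72 and 11.90 with E2 in the ERα line. Its ERβ levels were 9.92, 9.97 and 9.94 without doxycycline, 12.004, 11.88 and 11.90 with it and 13.63, 13.72 and 13.83 with E2. The ERβ arrays with doxycycline alone overlapped in level with the ERα arrays with E2. E2 raised it 6.05-fold in the ERα line (2.60 ± 0.08, adjusted p = 8.49e-12) and 3.48-fold in the ERβ line (1.80 ± 0.08), and doxycycline raised it 3.95-fold in the ERβ line (1.98 ± 0.08, adjusted p = 1.61e-10).

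SLC2A1, the basal glucose transporter of most cells, fell with E2 in both lines. It read 12.09, 12.17 and 12.02 with doxycycline and 11.19, 11.22 and 11.18 with E2 in the ERα line, and 12.36, 12.16 and 12.34 and 11.70, 11.72 and 11.45 in the ERβ line. Every E2 array was below every doxycycline array of its line. The changes were -0.90 ± 0.10 (adjusted p = 9.50e-06) and -0.66 ± 0.10 (adjusted p = 3.48e-04), their difference of 0.23 ± 0.14 was not called (adjusted p = 0.441), and doxycycline alone gave -0.05 ± 0.10 and -0.06 ± 0.10. SLC2A6 also fell in both lines, with changes of -0.38 and -0.46.

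SLC2A12, another glucose transporter, responded in opposite directions. It read 11.39, 11.41 and 11.51 with doxycycline and 10.46, 10.27 and 10.26 with E2 in the ERα line, and 8.69, 8.69 and 8.42 and 9.30, 9.07 and 9.26 in the ERβ line. Its change was -1.10 ± 0.12 in the first (adjusted p = 4.17e-06) and 0.61 ± 0.12 in the second (adjusted p = 0.00205), a difference of 1.71 ± 0.16. The 2 lines lay closer to each other with E2 than without it, and without doxycycline the ERβ line was lower (-2.70 ± 0.12). The fructose transporter SLC2A5 rose with doxycycline in the ERβ line, at least 1.12-fold, and SLC2A3, a high-affinity glucose transporter, fell there (-0.72 ± 0.14). Of the 20 sugar transporters, 3 rose and 3 fell with E2 in the ERα line and 3 rose and 2 fell in the ERβ line. These were 30% and 25%, beside 22.0% and 13.8% of all genes.

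**Figure D4:**
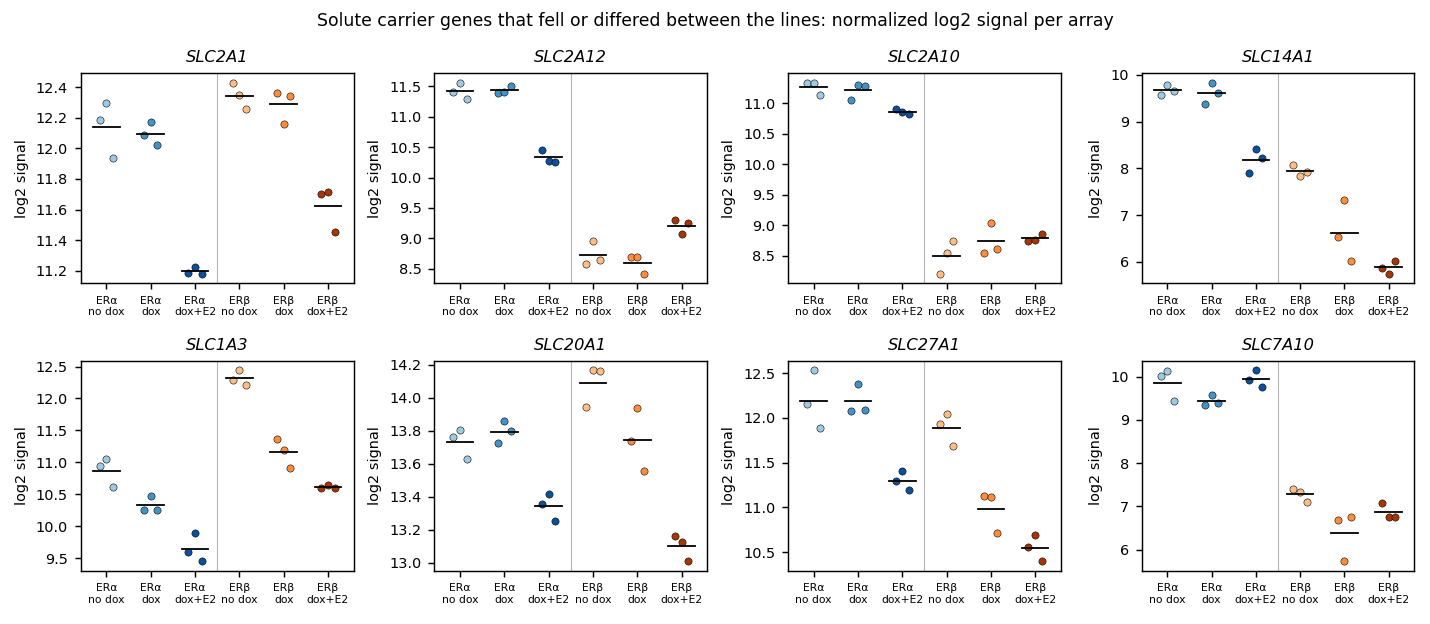
Normalized log2 signal of 8 solute carrier genes on each of the 18 arrays, drawn as in the plot of the rising genes. SLC2A1 and SLC20A1 are lower with E2 in both lines, SLC2A12 falls in the ERα line and rises in the ERβ line, and SLC2A10 and SLC7A10 differ between the lines in every condition; SLC14A1 is the probe ILMN_1805561.

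Metal transporters included SLC39A12, a zinc importer known mainly from brain. It read 5.72, 6.40 and 6.15 with doxycycline and 7.85, 8.07 and 8.001 with E2 in the ERα line, at least 3.16-fold higher (adjusted p = 1.10e-06). In the ERβ line doxycycline alone took it from 5.36, 5.66 and 5.93 to 8.91, 9.20 and 8.76, at least 5.83-fold (adjusted p = 2.77e-09), and E2 left it at 9.06, 9.14 and 9.21. The fitted E2 difference was -1.70 ± 0.25 and the fitted doxycycline difference 3.71 ± 0.25, neither of them a bound. Its promoter is shown because it is one of the rising genes with an estrogen half-site, which lies 234 bases before the start and is in capitals (the reverse complement of AGGTCA), at chr10:17951668-17951967 on the plus strand of GRCh38.p14 in RefSeq.
SLC39A12: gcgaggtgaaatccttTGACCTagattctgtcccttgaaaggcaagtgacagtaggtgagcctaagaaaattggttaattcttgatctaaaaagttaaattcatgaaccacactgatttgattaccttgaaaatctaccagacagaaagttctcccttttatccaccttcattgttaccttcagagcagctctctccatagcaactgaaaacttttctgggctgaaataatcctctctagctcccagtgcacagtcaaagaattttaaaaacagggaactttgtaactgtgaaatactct

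SLC39A14, a zinc, iron and manganese importer, rose with E2 in the ERα line (1.15 ± 0.11) and was not called in the ERβ line (0.17 ± 0.11), with a called difference of -0.98 ± 0.16. SLC31A2, a copper transporter of internal membranes, fell with E2 in the ERα line (-0.35 ± 0.08) and rose in the ERβ line with doxycycline (0.43 ± 0.08) and again with E2 (0.61 ± 0.08). The magnesium transporter SLC41A2 fell with E2 in both lines (-0.71 ± 0.11 and -0.63 ± 0.11), and SLC11A2, which imports ferrous iron, rose in both (0.56 ± 0.10 and 0.51 ± 0.10). The iron exporter SLC40A1 fell in the ERα line (-0.32 ± 0.11). Of 26 metal and heme transporters, E2 raised 6 and lowered 4 in the ERα line and raised 2 and lowered 2 in the ERβ line. These were 38.5% and 15.4%, beside 22.0% and 13.8% of all genes. SLC39A6, a zinc transporter known as an estrogen-linked gene in breast cells, had E2 changes of 0.11 ± 0.12 and -0.11 ± 0.12, neither called.

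Among the 35 transporters of inorganic ions and pH, E2 raised 4 and lowered 2 in the ERα line and raised 4 and lowered 4 in the ERβ line. These were 17.1% and 22.9%, beside 22.0% and 13.8% of all genes. SLC20A1, the widely expressed sodium-phosphate cotransporter, read 13.73, 13.86 and 13.80 with doxycycline and 13.36, 13.42 and 13.25 with E2 in the ERα line, and 13.94, 14.17 and 14.16, 13.74, 13.94 and 13.56 and 13.16, 13.13 and 13.01 in the 3 ERβ groups. The E2 arrays were lowest in both lines. The changes were -0.45 ± 0.10 and -0.64 ± 0.10 with E2 and -0.35 ± 0.10 with doxycycline in the ERβ line, all called falls. The doxycycline call of SLC20A1 was lost in 8 of 20 other settings. Its relative SLC20A2 fell with doxycycline in the ERβ line (-1.27 ± 0.28), and the E2 changes of -0.14 ± 0.28 and -0.64 ± 0.28 were not called, the second having an adjusted p of 0.176, or 0.0412 with replicate number as a block.

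SLC9A2, a sodium-proton exchanger, rose with E2 in both lines (1.40 ± 0.32 and 1.26 ± 0.32), as did the potassium-chloride cotransporter SLC12A4 (1.19 ± 0.09 and 0.79 ± 0.09). SLC12A5, the neuronal potassium-chloride cotransporter, rose in the ERβ line (0.999 ± 0.16) and had -0.32 ± 0.16 in the ERα line, a difference of 1.32 ± 0.22, but its second probe, ILMN_1811835, gave a difference of -0.08. SLC8B1, the mitochondrial sodium-calcium exchanger, rose in the ERα line (1.16 ± 0.18) and had 0.12 ± 0.18 in the ERβ line. With doxycycline in the ERβ line SLC26A11, a sulfate and anion transporter, fell (-1.09 ± 0.23), and SLC34A2, another phosphate transporter, fell at least 1.23-fold. The widely expressed SLC12A2 was not called for E2 in the ERα line (-0.20 ± 0.13).

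The 33 transporters of nucleosides, nucleotide sugars and acetyl-CoA held 6 rises and 3 falls with E2 in the ERα line and 3 rises and 5 falls in the ERβ line. These were 27.3% and 24.2%, beside 22.0% and 13.8% of all genes. SLC17A9, which loads nucleotides into vesicles, was called up with E2 in both lines as fitted, from undetected levels. It read 6.38, 6.52 and 6.42 with E2 in the ERα line, at least 1.09-fold higher, and 5.57, 6.72 and 6.35 in the ERβ line, where it was detected on 2 of 3 arrays. Against the lowest detected signals the ERβ change was -0.14 on the log2 scale, so no rise is established there. The ERβ call was lost in 2 of 19 other settings. No other array detected SLC17A9, so it passed the filter only with the E2-treated ERα arrays, and the ERα rise was favoured by its selection. The nucleoside transporter SLC29A2 fell with E2 in the ERβ line, from 10.85, 10.22 and 10.83 to 9.73, 9.74 and 9.42 (adjusted p = 0.00114), and had -0.12 ± 0.18 in the ERα line. SLC35F3 fell in both E2 comparisons (-0.92 ± 0.20 in the ERα line and at least 1.61-fold in the ERβ line) and with doxycycline in the ERβ line (-0.71 ± 0.20), although its second probe, ILMN_1794959, gave -0.24 for E2 in the ERβ line. Its relative SLC35F2 fell in the same 3 comparisons (-0.65, -0.73 and -0.54).

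Vitamin transporters were called only downward by E2, with 2 falls in the ERα line, against 3 in the ERβ line among 10 measured. These were 20% and 30%, beside 22.0% and 13.8% of all genes. In the ERβ line the falls of SLC19A3 and SLC46A1 were to levels below detection. SLC23A3, of the vitamin C transporter family, fell in both (-1.02 ± 0.18 and -0.87 ± 0.18). In the ERβ line the thiamine transporter SLC19A3 was at least 1.35-fold lower with E2. It passed the detection filter only through the doxycycline arrays of that line, so this fall was favoured by its selection. The call was lost in 8 of 19 other settings. The folate transporter SLC46A1, detected on 3 arrays in all and on 1 ERβ array with doxycycline, had a fitted change of -0.86 ± 0.23. That call was lost in 7 of 19 other settings. The biotin and pantothenate transporter SLC5A6 was not called for E2 in the ERα line (0.20 ± 0.10). Of 8 mono- and dicarboxylate transporters, SLC16A7, a pyruvate and lactate transporter, rose with E2 in the ERα line (0.73 ± 0.12) while its second probe, ILMN_1810053, gave -0.03. SLC16A9 fell with E2 in both lines (-0.41 ± 0.14 and -0.91 ± 0.14) and with doxycycline in the ERβ line (-0.73 ± 0.14). Other monocarboxylate transporters of wide expression, SLC16A1 and SLC16A3, were not analysed here.

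The E2 responses of the 2 lines share no array and could be set against each other. Of the members called, 29 were called in both lines, which is 41.4% of the 70 in the ERα line and 59.2% of the 49 in the ERβ line, beside 36.8% and 58.7% over all genes. In both lines 15 rose and 10 fell, and 4 moved in opposite directions: SLC2A12, SLC31A2, SLC66A1 and SLC7A2. The difference itself was called for 31 members, 14 with a higher and 17 with a lower response in the ERβ line, or 11.9% against 8.69% of all genes. A response past the threshold in 1 line and not in the other was counted as different only where this test called it. For SLC6A6, for example, the responses of 2.31 and 1.42 gave a difference of -0.88 ± 0.28 that was not called (adjusted p = 0.0669), although it was with replicate number as a block (adjusted p = 0.0315).

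**Figure D5:**
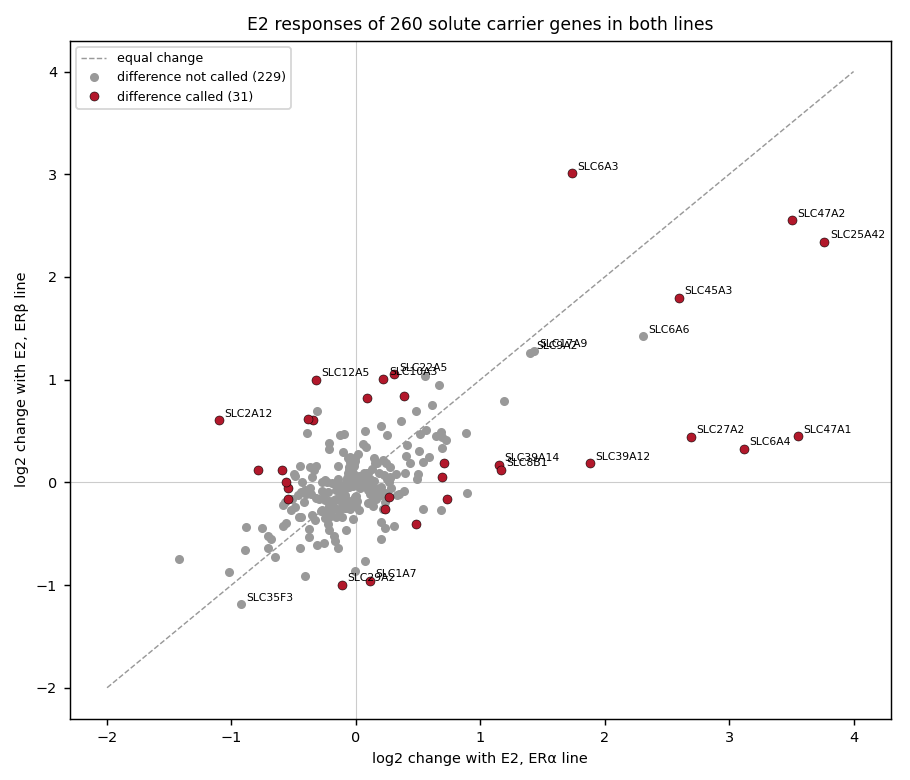
Log2 change with E2 in the ERα line (horizontal) against the ERβ line (vertical) for 260 solute carrier genes, 1 point a gene, with the 31 genes whose difference was called in red and a dashed line of equal change. SLC47A1, SLC6A4, SLC27A2 and SLC39A12 lie far to the right near 0 on the vertical axis, SLC6A3 lies above the dashed line, and SLC2A12 lies in the upper left.

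Doxycycline responses differed between the lines for 25 members, 15 higher and 10 lower in the ERβ line, or 9.62% against 9.66% of all genes. With replicate number as a block 47 members were called, 24 higher and 23 lower, against 14.6% of all genes. The 7 largest were rises in the ERβ line already given: SLC1A7, SLC18A3, SLC39A12, SLC47A2, SLC45A3, SLC6A6 and SLC25A42, with fitted differences from 4.12 ± 0.25 down to 1.44 ± 0.22. Their doxycycline changes in the ERα line were -0.26, 0.11, -0.41, -0.01, -0.01, 0.58 and -0.17, none called. The E2 changes of the same 7 genes in the ERα line, which are set against the same doxycycline arrays, were 0.11, 0.90, 1.88, 3.50, 2.60, 2.31 and 3.76 as fitted. On the negative side SLC4A4, a sodium-bicarbonate cotransporter, had -1.04 ± 0.27, SLC68A1 -0.84 ± 0.18 and the purine nucleobase transporter SLC43A3 -0.83 ± 0.20. A second SLC43A3 probe, ILMN_1672553, gave -0.02.

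Without doxycycline the 2 lines already differed for 123 members, 69 higher and 54 lower in the ERβ line, or 47.3% against 50.5% of all genes. The line and the ESR2 signal it held before doxycycline cannot be told apart in this comparison. The glucose transporters SLC2A10 and SLC2A12 were among the lowest in the ERβ line. SLC2A10 read 11.34, 11.33 and 11.14 in the ERα line, against 8.21, 8.54 and 8.75 in the ERβ line, 6.81-fold lower (-2.77 ± 0.14, adjusted p = 5.42e-10), and a second probe gave -3.05. SLC16A10, a transporter of aromatic amino acids, read 11.37, 11.41 and 11.25 and 9.22, 9.42 and 9.31 (-2.02 ± 0.09). SLC26A4, an anion exchanger known as pendrin, was undetected in the ERβ line and at least 2.23-fold lower there. The organellar sodium-proton exchanger SLC9A9 was lower (-1.79 ± 0.22), and so was SLC14A1 (-1.73 ± 0.24).

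On the higher side SLC27A2 led with 2.98 ± 0.15 (7.91-fold, adjusted p = 5.46e-10), followed by SLC68A1 (1.79 ± 0.13), SLC26A11 (1.65 ± 0.23), SLC43A3 (1.46 ± 0.14) and SLC1A3 (1.45 ± 0.14). The fatty acid transport protein SLC27A6 was higher by 1.33 ± 0.11 and the bicarbonate transporter SLC4A8 by 1.23 ± 0.15. Metal transporters had the most calls for their number, with 12 higher and 6 lower in the ERβ line of 26. That was 69.2%, beside 50.5% of all genes, with no test of the class. Among those called were SLC39A14 (1.09 ± 0.11) and SLC39A6 (0.51 ± 0.12, with 0.55 and no call for a second probe). Of 39 mitochondrial carriers, 13 were higher and 8 lower, or 53.8%. SLC20A1 (0.36 ± 0.10) and SLC5A6 (0.89 ± 0.10) were also higher in the ERβ line.

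Transport genes outside the symbol rule were followed in a list of 26, of which 19 were measured. E2 raised 10 and lowered 2 of these in the ERα line and raised 6 and lowered 1 in the ERβ line, and doxycycline raised 7 and lowered 2 in the ERβ line and 0 in the ERα line in either direction. Of all genes, E2 raised 10.9% and lowered 11.1% in the ERα line and 6.98% and 6.84% in the ERβ line. Doxycycline raised 9.9% and lowered 10.7% in the ERβ line. The list was chosen by hand with earlier results known, so its counts do not speak for transport genes at large. PDZK1, a scaffold that holds transporters at the membrane, was at least 7.83-fold higher with E2 in the ERα line and rose by 4.12 ± 0.21 in the ERβ line. The related scaffolds NHERF1 and NHERF2 rose in both lines as well, NHERF1 by 1.67 and 1.32 and NHERF2 by 2.42 and 2.36. SLCO2A1, the prostaglandin transporter, rose by 3.01 ± 0.12 and 3.45 ± 0.12 and was lower in the ERβ line without doxycycline (-4.38 ± 0.12). TXNIP, an inhibitor of glucose uptake, fell with E2 in the ERα line (-1.19 ± 0.26) and with doxycycline in the ERβ line (-1.48 ± 0.26). Of the 8 amino-acid stress genes that were left out of the members, doxycycline lowered 5 and raised 0 in the ERβ line, where it lowered 10.7% of all genes.

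Promoter letters were available for 213 of the 260 members, as 296 RefSeq windows of 300 bases among 35116 windows of all genes. The full estrogen response element (GGTCA and TGACC with 3 bases between them, both strands) was found in 1 member window, 0.338%, beside 0.057% of all windows. That window belongs to SLC35B2, which carries the sulfate donor of sulfation into the Golgi, and is 1 of 3 windows of the gene. SLC35B2 read 12.83, 12.77 and 12.81 with doxycycline and 12.83, 12.85 and 12.95 with E2 in the ERα line and 13.11, 13.30 and 13.17 and 13.25, 13.30 and 13.30 in the ERβ line, and its E2 changes of 0.07 ± 0.07 and 0.09 ± 0.07 were not called. It is shown as the 1 member window with the full element, which starts 241 bases before the start and is in capitals together with an overlapping half-site (chr6:44257479-44257778, minus strand, GRCh38.p14).
SLC35B2: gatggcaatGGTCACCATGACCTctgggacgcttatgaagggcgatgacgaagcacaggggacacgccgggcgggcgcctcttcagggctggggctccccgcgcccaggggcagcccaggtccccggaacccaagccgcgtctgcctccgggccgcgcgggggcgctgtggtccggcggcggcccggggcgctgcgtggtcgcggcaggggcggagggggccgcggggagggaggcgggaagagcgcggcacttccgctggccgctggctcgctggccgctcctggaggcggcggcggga

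The half-site AGGTCA was found, on either strand and counting those inside a full element, in 11.5% of the member windows and 13.8% of all windows. It was present in 4 of 43 windows of members that rose with E2 in the ERα line and 3 of 38 of those that fell (9.3% and 7.89%). For E2 in the ERβ line it was in 4 of 31 rising and 5 of 27 falling windows (12.9% and 18.5%), and for doxycycline in the ERβ line in 7 of 28 and 2 of 32. The falling windows thus held it more often in 1 of the 3 comparisons and less often in the other 2, over few windows and with no test. The AP-1 letters TGACTCA were found in 5.07% of member windows and 4.95% of all, and the GC box GGGCGG in 62.5% and 45.0%. These are descriptions of short windows, and several windows can belong to 1 gene.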

How the data were processed

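Total RNA was biotin-labelled and hybridized to single-colour arrays, per the labels' protocols. The authors deposited a raw intensity and a detection p-value for every probe, per the file headers. They also deposited processed intensity values, with lumi named in the submitters' processing notes, which served as an alternative only. Their background correction and scaling are not given in the sources used here.

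The neqc function of limma 3.58.1 (R 4.3.3) estimated background from the detection p-values, corrected it with an offset of 16, quantile-normalized and took log2. A probe was kept where p was below 0.01 on 3 or more of the 18 arrays, and each gene took its kept probe with the highest mean. The 6 group means were fitted to all 18 arrays with lmFit and eBayes, 2-sided, with Benjamini-Hochberg adjustment over 13505 genes, after a test on simulated data. A bound ("at least") sets a detected group against the higher of the lowest detected signal and the probe's own signal on each array of a group where the probe was undetected.

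Raw columns without doxycycline carry sample titles. The others are known by group only, and took their replicate number from the processed column with the best rank match (0.973 to 1), a step chosen after the data were seen. Within each pair of groups compared, same-numbered arrays deviated together (correlations of 0.151 to 0.579), so the numbers were taken as pairing the arrays. Of the 18 pairs among the 4 groups of the E2 difference, 17 were above 0.1 and the lowest was 0.061. The fit without the block is the reported one, and blocked values are given where they change a call printed for a member. Class counts and overlaps are from the fit without the block only. Named genes were the 8 largest rises and falls of each comparison whose arrays did not overlap (6 for differences, whatever the overlap), the largest change in each substrate class, and a preset list of housekeeping and estrogen-linked members. Members, classes and lists were chosen with earlier results of these data known. Of 59 members with more than 1 kept probe, 0 had a second probe called in the opposite direction. Promoters came from RefSeq tables. Genome sequence was not used here.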

Additional observations from a re-analysis of the deposited data

Results flagged for a closer look

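Differences between the lines in the E2 response (ERβ minus ERα) were called by the interaction term of limma for 19 of the genes picked by the naming rule, leaving out SLC6A4, whose difference was built into its selection. SLC47A1 is counted among them, although its selection rested on the E2-treated ERα arrays and so favoured its call. The fitted response was lower in the ERβ line for SLC47A1 (-3.10), SLC27A2 (-2.25), SLC39A12 (-1.70), SLC25A42 (-1.43), SLC1A7 (-1.07), SLC39A14 (-0.98), SLC47A2 (-0.95), SLC16A7 (-0.89), SLC29A2 (-0.88) and SLC45A3 (-0.80). It was higher in the ERβ line for SLC2A12 (1.71), SLC12A5 (1.32), SLC6A3 (1.28), SLC66A1 (0.999), SLC31A2 (0.96), SLC25A35 (0.91), SLC22A5 (0.75), SLC16A10 (0.49) and SLC49A4 (0.38). The directions for SLC47A2 and SLC6A3 rest on signals below detection and are not established. SLC1A7 was undetected on every array of the ERα line, so its E2 response there was not measurable. Second probes gave -1.16 for SLC25A42, -0.21 for SLC16A7 and -0.08 for SLC12A5, none called, and 1.06 for SLC66A1, called.

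The doxycycline response differed between the lines for 18 such genes by the same test. It was higher in the ERβ line for SLC1A7 (4.12), SLC18A3 (4.06), SLC39A12 (3.71), SLC47A2 (3.41), SLC45A3 (1.99), SLC6A6 (1.59), SLC25A42 (1.44), SLC25A34 (1.43), SLC16A10 (0.54) and SLC31A2 (0.49). It was lower there for SLC14A1 (-1.25), SLC26A11 (-1.07), SLC4A4 (-1.04), SLC27A1 (-0.90), SLC68A1 (-0.84), SLC43A3 (-0.83), SLC16A9 (-0.68) and SLC35F2 (-0.58). The second SLC14A1 probe gave 0.48, the second SLC25A42 probe 1.11 and the second SLC35F2 probe -0.51, none called. All values are fitted log2 differences, and those of genes undetected in a group are no bounds.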

How the results depend on the processing

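Counts of called members, listed for E2 (ERα line, then ERβ line), doxycycline (ERβ line), the E2 and doxycycline differences and the lines without doxycycline, were 70, 49, 54, 31, 25 and 123. With the authors' processed values E2 in the ERβ line gave 74, doxycycline 1 (ERα line) and 95 (ERβ line), and the E2 and doxycycline differences gave 53 and 64. Fits on only the arrays compared gave 30 for the ERβ line's doxycycline response and 14 for the doxycycline difference. Array weights gave 86 for E2 in the ERβ line and 48 and 40 for the E2 and doxycycline differences. The replicate block, with replicate number as a fixed term, gave 89, 64, 79, 38, 47 and 142. With the authors' values the replicate block gave 82 for the ERβ line's doxycycline response and 48 for the doxycycline difference. The block ended 0 of the reported calls and, beside the 2 gene values and the counts given with it in the report, changed no call printed for a member. Leaving out 1 array or 1 replicate set of 6 arrays gave 36 to 61, 22 to 47, 18 to 49, 9 to 32, 6 to 27 and 80 to 119, and 0 for doxycycline in the ERα line. The lowest values came without replicate set 1. Without set 2 the counts were 43, 30, 26, 15, 12 and 99, and without set 3 they were 56, 31, 48, 18, 13 and 112. The cause was not tested beyond the smaller number of arrays. Without background correction, with cyclic loess, a median shift, the mean of probes, or another detection filter, each count stayed within 1.5 times its reported value. So did the counts not printed for the settings listed in part.

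Of 111 called results of named genes, 67 kept their call under every setting run, 44 lost it at least once and 0 reversed, with SLC6A4 included although its calls were built into its selection. SLC47A1, SLC17A9 and SLC19A3 are included too, although their selection favoured calls that involve the group it rested on. The calls lost most often were the doxycycline difference of SLC26A11 (16 of 25 settings), the E2 difference of SLC29A2 (14 of 26) and the fall of SLC34A2 with doxycycline (13 of 19). Genes near the detection limit have only bounds, and their fitted changes depend on the background correction. Depth in the sense of read counts does not apply to arrays.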
